A study of Mus musculus with 6 samples.

Results

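The 200 gene models described here are the most abundant rows of the count table whose symbol is Gm followed only by a number, the provisional symbol that mouse gene nomenclature gives to a predicted gene. The table held 320 such rows among 15159. Of these, 1 was left out, the other 319 were ranked by their counts summed over all 6 libraries, and the first 200 were kept. The last kept were Gm16982 with 167 counts and Gm15760 with 160, and the next in rank were Gm13749 with 158 and Gm7030 with 154. The models were thus chosen by their summed counts, which include every library of both groups. Their abundance is a description and not a finding, and a model with counts in 1 group only could enter through that group.

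The libraries came from polyadenylated RNA of cardiac cells of mouse embryos of day 18.5, strain C57BL/6 x 129S4/SvJae, kept in culture for 4 days on silicone (PDMS) of 13 kPa. Both groups carried an inducible histone H3.3 and both received doxycycline at 2 µg/ml on days 0, 1 and 2. The H3WT group expressed wild-type H3.3 and the H3K9M group expressed H3.3 with methionine in place of lysine 9, with 3 libraries each. Lysine 9 of histone H3 is methylated in silenced chromatin, including duplicated gene clusters and repeats, and the mutant histone is known to inhibit that methylation, which was not measured in these data. The labels do not state the promoter of the transgene or the animals behind each library. In order of replicate, the titles carry M1, M2 and M5 in H3WT and M1, M3 and M5 in H3K9M, without saying what M stands for. In both groups the title of replicate 2 lacks the word Soft that the others have. The p-values thus cover the spread among these 6 libraries, which may be technical.

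Gm symbols cover several kinds of gene. A processed pseudogene is a reverse-transcribed copy of a messenger RNA that was inserted elsewhere in the genome, and a young copy is nearly identical to its source. A read-through model joins exons of neighbouring genes into 1 transcript, and a long non-coding RNA (lncRNA) is a long transcript without a recognised protein. For copies and read-through models a short read can match the Gm model and a named gene equally well, so the counts of such a row need not come from its own locus.

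By the RefSeq annotation of GRCm38.p6, the assembly also called mm10, 78 of the models are lncRNAs, 76 are protein coding, 42 are pseudogenes and 1 is a microRNA. The other 3, Gm17066, Gm14430 and Gm20219, were not matched. Of the 197 matched, 164 carry the same symbol in RefSeq and 33 stand there as an older symbol. The label of an unnamed gene goes against the annotation for 32 of those, which now have a symbol that is no Gm number. Examples are Gm15800, now Hectd4, a ubiquitin ligase gene, Gm11974, now Snhg15, a small nucleolar RNA host gene, Gm14005, now Morrbid, a lncRNA known from myeloid cells, and Gm1821, now Ubb-ps, a pseudogene of ubiquitin B.

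The sequences of the most abundant copies show how little separates them from their source. They are shown because 3 of the first 6 models in rank are copies of the 2 named genes below. Hnrnpa1, on chromosome 15, encodes an RNA-binding protein of nuclear ribonucleoprotein particles, and Rpl26, on chromosome 11, encodes a protein of the large ribosomal subunit. A stretch of 60 bases of each coding sequence is given 5′ to 3′, from GENCODE M21 transcripts, with the matching stretch of the copies. Capitals mark bases that differ from the named gene, with positions counted from 1 at the first base shown.
Hnrnpa1: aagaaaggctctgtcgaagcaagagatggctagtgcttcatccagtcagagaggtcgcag
Gm10052: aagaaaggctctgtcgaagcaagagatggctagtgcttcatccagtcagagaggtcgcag
Gm5643: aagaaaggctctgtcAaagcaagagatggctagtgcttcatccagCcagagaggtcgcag
Rpl26: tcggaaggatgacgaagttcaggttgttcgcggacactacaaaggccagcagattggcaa
Gm15772: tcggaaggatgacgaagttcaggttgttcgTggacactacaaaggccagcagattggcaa
In these stretches Gm10052 has no difference, Gm5643 has G16A and T46C, and Gm15772 has C31T. Over the whole coding sequence Gm10052 was identical to Hnrnpa1 at all 960 bases, and Gm5643 differed at 19 of 960 aligned bases, an identity of 98.0%. Gm15772 differed from Rpl26 at 2 of 435 bases (99.5%), and Gm1821 differed from Ubb, a polyubiquitin gene, at 13 of 685 aligned bases (98.1%).

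The libraries held 55550379 to 67994773 counts each, and all 200 models were among the 14758 genes with enough counts for the test. Rn45s, the ribosomal RNA precursor, took 0.374% to 1.02% of the counts of a library. The marker genes of cardiomyocytes summed to 25305 to 31358 CPM (read counts scaled to a common library size after TMM normalisation) in H3WT and 27553 to 31234 CPM in H3K9M, and those of fibroblasts to 9179 to 14107 and 7946 to 12824 CPM. All 9 cardiomyocyte and all 7 fibroblast markers were in the table, and none passed the test. None of the 6 erythroid markers was in the table. The 7 endothelial markers summed to 188 to 252 CPM in H3WT and 108 to 172 CPM in H3K9M, with none past the test. Of 4 epithelial markers 2 were in the table, Epcam and Cdh1 were not, and 1 passed the test as higher, with sums of 22.1 to 38.3 and 38.8 to 86.1 CPM. Both of these sums differed between groups without overlap, and their part in the results below was not tested. In bulk RNA, fewer cells of a type and less RNA per cell cannot be told apart.

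Together the 200 models held 1455348 counts, a small part of the libraries. Their share was 0.411%, 0.426% and 0.401% of the counts in the H3WT libraries and 0.389%, 0.420% and 0.405% in the H3K9M libraries. The groups overlapped, with means of 0.413% ± 0.0121 (SD, n = 3) and 0.405% ± 0.0154. Few models carried most of these counts: the first 7 held 64.3% of them, the first 10 held 71.7% and the first 50 held 94.1%. Pseudogenes held 0.248% ± 0.00936 of all counts in H3WT and 0.243% ± 0.0119 in H3K9M, and protein coding models 0.131% ± 0.00844 and 0.125% ± 0.00352. The 78 lncRNAs held 0.0318% ± 0.000737 in H3WT and 0.0349% ± 0.000437 in H3K9M. The 3 H3K9M libraries (0.0352%, 0.0350% and 0.0344%) all lay above the 3 H3WT libraries (0.0326%, 0.0311% and 0.0318%). Few models weigh heavily in this sum, so it does not describe the class at large. The read-through models Gm38431 and Gm20605, protein coding in GENCODE, had 37296 and 17571 counts, against 448 in the median lncRNA. Gm5532, with 4579 counts, had a log2 fold change of H3K9M over H3WT of 1.37 ± 0.18 (SE). The share without these models was not computed.

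Sequence shared with other genes was measured as the percentage of the 50-base words of a model's transcripts that also occur in transcripts of another gene. For 188 models with GENCODE transcripts the median was 26.1%. At the ends of the range, 13 models had all their words in another gene and 34 had none. More than 50% of the words were shared in 66 models: 26 of 40 pseudogenes, 36 of 74 protein coding models and 3 of 71 lncRNAs, and 1 model of another class. The medians of these 3 classes were 73.8%, 46.3% and 4.73%. Shared sequence went with abundance: 26 of 29 models among the first 30 in rank were over 50%, against 40 of 159 among the other 170. Exons of 28 models overlapped another gene on the same strand and those of 44 only on the opposite strand. The sources used here do not give the strand setting or the handling of reads that match several genes, so reads of overlapping genes may not be separated.

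**Figure D1:**
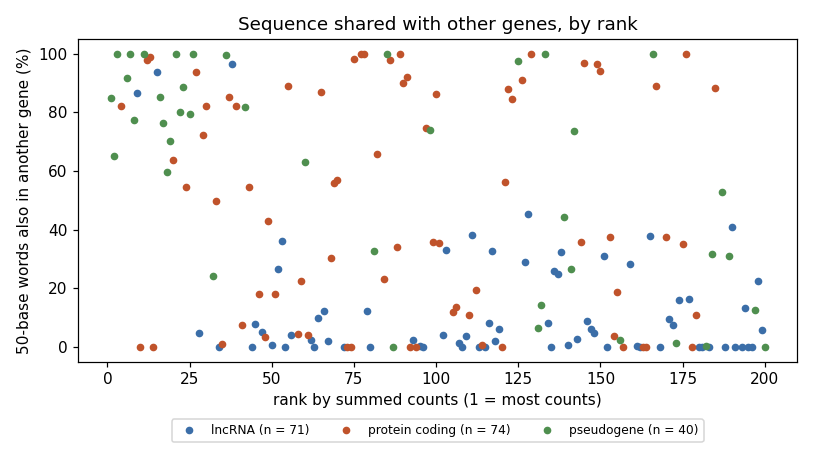
Percentage of 50-base words of each model's transcripts that also occur in another gene, against its rank by summed counts, for lncRNAs, protein coding models and pseudogenes with GENCODE transcripts. Of the models among the first 30 in rank with transcripts, 26 of 29 lie above 50%, and most lncRNAs lie near the bottom, with a median of 4.73%.

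The most abundant models were copies of housekeeping genes and followed the counts of their source in every library. Gm1821 (chromosome 14, 46084027 to 46084957) had 36081, 33863 and 38219 counts in H3WT and 29186, 35183 and 32306 in H3K9M. Those values were 96.1% to 97.7% of the counts of Ubb in the same libraries. The log2 fold change of H3K9M over H3WT was -0.14 ± 0.09 (SE) for Gm1821 and -0.14 ± 0.09 for Ubb, with edgeR adjusted p of 0.485 and 0.493. The groups overlapped for both.

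Gm5643 on chromosome X and Gm10052 on chromosome 9 are copies of Hnrnpa1. Gm5643 had 22079, 24975 and 31766 counts in H3WT and 24091, 26993 and 25645 in H3K9M, which was 99.9% to 100.3% of Hnrnpa1. Gm10052 had 21151, 23930 and 30312 counts in H3WT and 22910, 25909 and 24708 in H3K9M, 95.4% to 96.4% of Hnrnpa1. All 3 rows thus held nearly the same number in each library, although Gm5643 shares 59.0% of its words with Hnrnpa1 and Gm10052 shares all of them. None changed, with log2 fold changes of -0.01 ± 0.09 for each of Gm5643, Gm10052 and Hnrnpa1 and edgeR adjusted p of 0.978, 0.984 and 0.975.

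Gm15772 on chromosome 5 had exactly the counts of Rpl26 in all 6 libraries: 16858, 19565 and 18875 in H3WT and 16329, 19338 and 17284 in H3K9M. Gm12191 on chromosome 11 is a copy of Rpl30, another gene of the large ribosomal subunit, and had 99.8% to 99.96% of its counts. Gm12669 on chromosome 4 is a copy of Glrx3, a glutaredoxin gene, and had 97.1% to 98.7%. Neither ribosomal copy changed (log2 fold changes of -0.05 ± 0.10 and 0.01 ± 0.09, edgeR adjusted p of 0.862 and 0.967), nor did Gm12669 (0.13 ± 0.09, edgeR adjusted p = 0.492).

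Identical rows were found for 15 of the 200 models, and 7 of these were identical to a gene with a name. Besides Gm15772, Gm6644 had the counts of Akr1b3, an aldose reductase gene, with 4101, 4296 and 4945 in H3WT and 4787, 4661 and 4582 in H3K9M. Gm9855, now Tdg-ps2, had the counts of Tdg, a DNA glycosylase gene, from 2311 to 3704. Gm7367 had those of Ubald2, from 1262 to 1871. Gm13305 and Gm2002 both had the counts of Il11ra2, an interleukin 11 receptor gene, with 253, 111 and 125 in H3WT and 127, 134 and 158 in H3K9M. Gm4070 had those of Gvin1, a very large interferon-inducible GTPase gene, from 86 to 197. Each such row is 1 measurement under 2 or 3 symbols, and none passed the test. The other 8 models were identical only to other Gm rows: Gm14308, Gm14430, Gm14434 and Gm4724 formed 1 set of 4, and Gm14431 with Gm8898 and Gm14296 with Gm6182 formed 2 sets of 2.

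In all, 35 models shared more than 50% of their words with 1 named gene that was tested, 28 with a gene elsewhere in the genome and 7 with a gene they overlap. The 28 were not equally close to their source in counts. Gm5424, a copy of Ass1, an enzyme of arginine synthesis, had at least 99.7% of its counts in every library, and Gm5512, a copy of Rmnd1, had 102.3% to 104.8%. Gm12338 shares all its words with Cox7c, a subunit gene of cytochrome c oxidase, yet had 10.3% to 11.997% of its counts. Gm12070 shares 94.75% of its words with Gapdh, the glycolytic enzyme gene, and had 7.98% to 8.81%. Gm12657 shares 58.0% with H3f3a, which encodes histone H3.3, and had 0.914% to 1.10%. Across these pairs the share of words and the share of counts thus did not follow the same order.

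**Figure D2:**
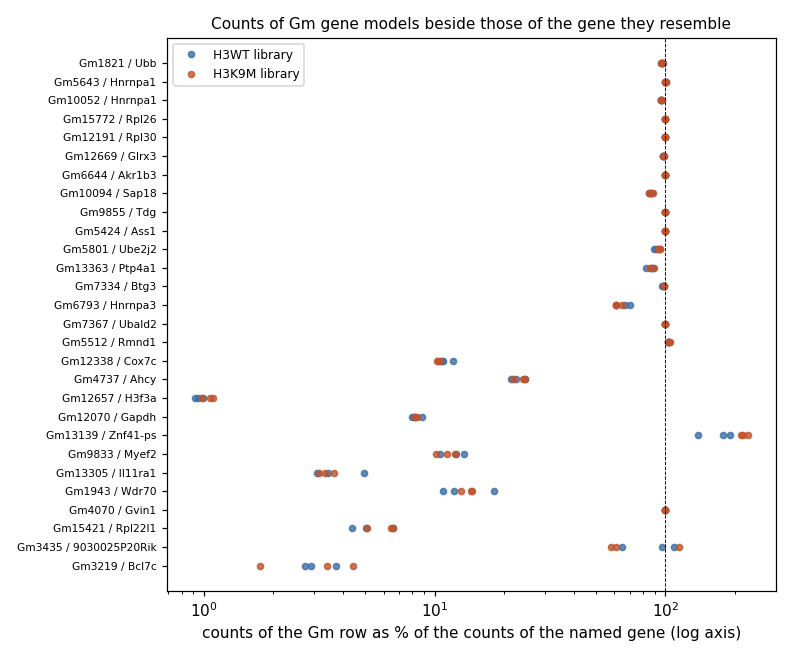
Counts of 28 Gm models as a percentage of the counts of the named gene they resemble, which lies elsewhere in the genome, on a log axis with 1 point per library (H3WT blue, H3K9M orange). Gm15772 and other identical rows sit at 100%, while Gm12657 lies between 0.914% and 1.10% of H3f3a.

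The fold changes of the 35 models were close to those of the named gene, which may share reads with them and is not taken as an independent measurement. In 5 of the pairs the counts are identical, so the fold changes are equal by construction. The log2 fold changes differed by less than 0.1 in 26 pairs, by less than 0.5 in all 35, and by 0.0174 in the median. Over all genes tested the median size of the log2 fold change was 0.152, so differences under 0.5 say little. No model and no named gene of these pairs passed the test. Gm12657 had a log2 fold change of 0.03 ± 0.11 and H3f3a of -0.11 ± 0.10, with edgeR adjusted p of 0.923 and 0.653. Both groups carry an H3.3 transgene, so H3f3a does not check the labels. Gm13139, now Zfp991, differed most from its partner, at 0.18 ± 0.23 against -0.19 ± 0.22 for Znf41-ps, where the difference was not tested.

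**Figure D3:**
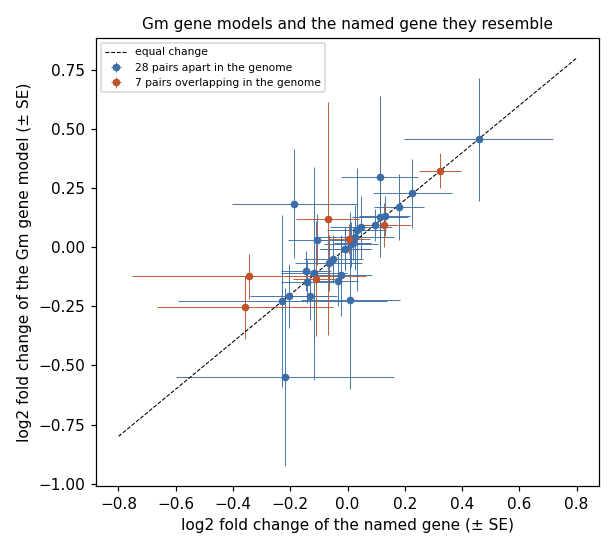
Log2 fold change (H3K9M over H3WT) of 35 Gm models against that of the named gene sharing most of their words, each with its SE. In 26 pairs the values differ by less than 0.1 and lie on or near the dashed line of equal change.

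Read-through models were the other abundant kind. Gm37013 and Gm38666 on chromosome 18 span the alpha and gamma protocadherin clusters, which encode adhesion proteins of neurons. Their rows were nearly equal: Gm37013 had 22277, 22504 and 22368 counts in H3WT and 20104, 20709 and 20310 in H3K9M, and Gm38666 had 22279, 22502 and 22368, and 20100, 20709 and 20310. Raw counts of Gm37013 were lower in every H3K9M library, but its CPM overlapped between groups (377 ± 42.1 and 346 ± 7.25), and the log2 fold change of -0.12 ± 0.09 did not pass (edgeR adjusted p = 0.566).

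Gm38431 overlaps exons of Raver1 and Fdx1l and had 85.1% to 91.4% of the counts of Raver1, an RNA-binding protein gene. Its level was 103 ± 3.41 CPM in H3WT, against 106 ± 1.11 CPM in the mutant group (edgeR adjusted p = 0.839). Gm20605, which overlaps Lrch4, had 105.0% to 111.8% of its counts and an edgeR adjusted p of 0.678. Gm21949 overlaps Schip1, which encodes a protein of the axon initial segment, and had 98.5% to 99.2% of its counts. Its counts were 3251, 3486 and 3967 in H3WT and 4152, 4506 and 4525 in H3K9M, with no overlap in CPM. The log2 fold change was 0.32 ± 0.07 for Gm21949 and 0.32 ± 0.07 for Schip1, short of the threshold (edgeR adjusted p of 0.0743 and 0.0723). Gm15800, the Hectd4 gene, shares 0.0303% of its words with other genes, and its 89.7 ± 3.25 and 87.2 ± 4.5 CPM did not differ beyond their spread (edgeR adjusted p = 0.826).

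Of the 200 models, 4 were higher and 1 was lower in H3K9M at an edgeR adjusted p under 0.05, adjusted over all 14758 genes tested. That is 2.5% of them, beside 1.99% of all genes tested, 0.935% as higher and 1.05% as lower, so the share called was near the background. DESeq2 called 12 of the 200 as higher and 8 as lower, the 8 including 4 identical rows, beside 471 and 539 of all 15159 rows. With DESeq2 the share of the models was above that of all rows, so the nearness to the background is stated for edgeR. Without H3WT replicate 2, edgeR called 1 and 0, beside 30 and 30 of all genes. Of the 4 called as higher, Gm3002 and Gm3264 had 6 and 42 counts in the H3WT group, under the 160 of the last kept model, so their H3K9M counts brought them in. At an unadjusted edgeR p under 0.05 there were 14 higher and 11 lower, and the matching count over all genes is not given here. The CPM of the groups did not overlap for 27 models as higher and 21 as lower, beside 11.3% of all genes in each direction. Their median log2 fold change was 0.01, against 0.00 over all genes tested, and their median standard error was 0.365, against 0.133. Within a group the highest library was 1.52 times the lowest in H3WT and 1.54 times in H3K9M in the median model, against 1.23 and 1.22 times in the median gene. The 4 called as higher were 1 lncRNA, 2 protein coding models and 1 pseudogene, and the 1 called as lower was protein coding. None of the 72 tested Gm rows of lower rank was called, and 13 of 641 tested RIKEN models were, 9 higher and 4 lower.

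**Figure D4:**
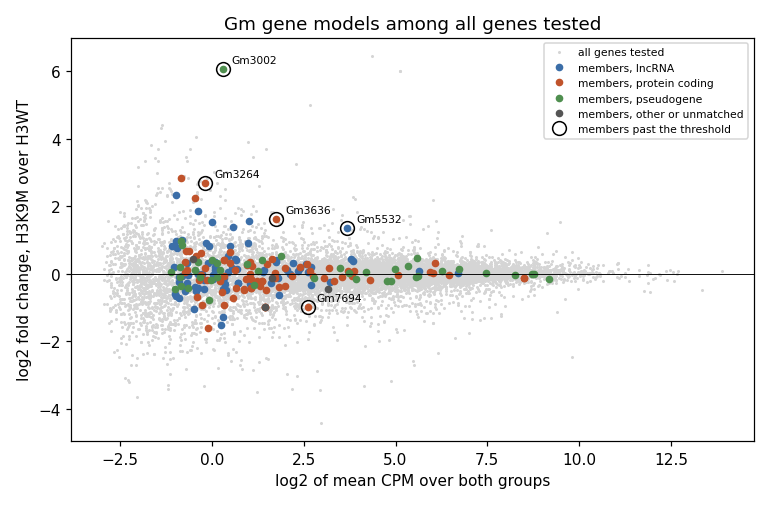
Log2 fold change of H3K9M over H3WT against the log2 of the mean CPM for all 14758 genes tested (grey) and the 200 Gm models, coloured by RefSeq class. The 5 models past the threshold are ringed, and the most abundant models lie close to 0 while those of low level spread widely.

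Gm5532 had the most counts of the 5 called models and was the one with none of its words in another gene. It is a lncRNA on chromosome 1, 155520173 to 155527111, of GRCm38. Its counts were 362, 334 and 613 in H3WT and 1247, 1068 and 955 in H3K9M. Every H3K9M library lay above every H3WT library, and the mean level was 18.5 ± 2.45 CPM in H3K9M against 7.16 ± 1.61 CPM. With edgeR, Gm5532 rose by 1.37 ± 0.18 on the log2 scale at an adjusted p of 0.0111. Without H3WT replicate 2 the adjusted p was 0.0589 and the call was lost. Its tested neighbours did not pass: Xpr1, a phosphate exporter gene 102729 bases away, had a log2 fold change of 0.13 ± 0.09, and Acbd6, an acyl-CoA binding protein gene 30988 bases away, of 0.03 ± 0.09 (edgeR adjusted p of 0.529 and 0.895).

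Gm7694 was the 1 model of the 200 that fell by the edgeR test. It is annotated as protein coding on chromosome 1, 170298193 to 170306332, and 3.28% of its words occur in another gene, all of them in Nos1ap, which encodes an adaptor of neuronal nitric oxide synthase. In GENCODE its exons overlap those of Nos1ap on the same strand, while the RefSeq spans lie 9135 bases apart, so reads of the pair may not be separated. Its counts were 502, 395 and 562 in H3WT and 221, 266 and 233 in H3K9M, with no overlap. Mean levels were 8.11 ± 0.923 CPM in H3WT and 4.07 ± 0.302 CPM in H3K9M, a difference of -0.99 ± 0.17 on the log2 scale (edgeR adjusted p = 0.0292). Nos1ap had a log2 fold change of -0.52 ± 0.24 that did not pass (edgeR adjusted p = 0.334). Uhmk1, a kinase gene 82296 bases away on the other side, stood at 0.23 ± 0.11 (edgeR adjusted p = 0.355). Leaving out H3WT replicate 1 or 2, or any 1 of the 3 H3K9M libraries, ended the call, at adjusted p between 0.0690 and 0.0924.

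The other 3 called models lie in 1 family of duplicated genes at the start of chromosome 14. Their closest named gene by shared words is 2610042L04Rik, also called takusan, the name of a duplicated mouse gene family known from neurons as a regulator of synaptic activity. The family was delimited after the values were seen. It had 5 of the 200 models: Gm3002, annotated as a pseudogene, and the protein coding models Gm3264, Gm3636, Gm3696 and Gm3558, which share 86.98% to 97.36% of their words with other genes. In sum they had 147, 122 and 145 counts in the H3WT libraries and 537, 774 and 672 in the H3K9M libraries. In CPM, the H3K9M libraries lay above the H3WT libraries for all 5, beside 11.3% of all genes tested. Of the 5, 3 passed the edgeR test as higher, beside 0.935% of all genes tested. Gm3002, Gm3264, Gm3696 and Gm3558 reached the 160 counts of the last kept model only through their H3K9M counts, so the choice of models partly fixed their direction, and these values are a description. Some of the 5 share sequence with each other: Gm3002 holds 75.03% of the words of Gm3264, and Gm3696 holds 53.14% of those of Gm3558.

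Gm3002 (3814913 to 3830683) had 2, 4 and 0 counts in H3WT and 95, 188 and 144 in H3K9M. The level rose from 0.0359 ± 0.0360 to 2.41 ± 0.741 CPM, and the fitted log2 fold change of 6.06 ± 0.73 (edgeR adjusted p = 0.00710) depends on the prior count, given so few H3WT counts. Gm3264 (4854917 to 4876908) had 8, 19 and 15 counts in H3WT and 52, 98 and 117 in H3K9M, and edgeR called its log2 fold change of 2.68 ± 0.53 at an adjusted p of 0.0445. Gm3264 lost its call without any 1 of the 6 libraries, at adjusted p from 0.0650 to 0.152. Gm3636 was the most abundant of the family, with 120, 65 and 113 counts in H3WT and 288, 284 and 328 in H3K9M. Its mean was 1.66 ± 0.484 CPM in H3WT and 5.11 ± 0.550 CPM in H3K9M, and edgeR put its rise at 1.62 ± 0.27 on the log2 scale with an adjusted p of 0.0268. That call was lost without H3WT replicate 2 (adjusted p = 0.103) and without each H3K9M library (0.0763 to 0.0961).

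Gm3558 and Gm3696 did not pass. Gm3558 had 9, 11 and 4 counts in H3WT and 53, 92 and 31 in H3K9M, and edgeR gave a log2 fold change of 2.83 ± 0.66 with an adjusted p of 0.0759. Gm3696 had 8, 23 and 13, and 49, 112 and 52, and its log2 fold change of 2.26 ± 0.59 had an edgeR adjusted p of 0.09995. Gm3020, a Gm row of lower rank next to Gm3002, had 5, 2 and 0 counts in H3WT and 50, 27 and 27 in H3K9M (edgeR adjusted p = 0.0795).

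**Figure D5:**
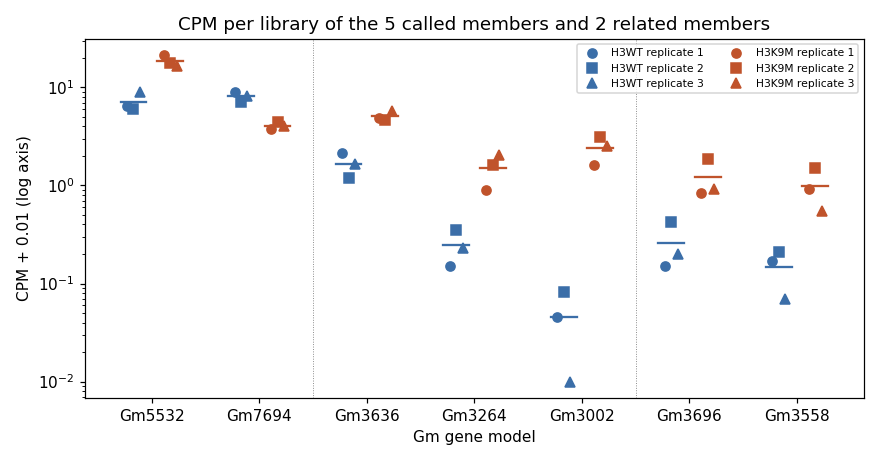
CPM + 0.01 on a log axis in each library for the 5 models past the threshold and for Gm3696 and Gm3558, with bars at the group means. In all 7 models the 3 H3K9M libraries (orange) lie on 1 side of the 3 H3WT libraries (blue), below them in Gm7694 alone.

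The promoters of the family are shown to compare the promoter sequences listed for these duplicated genes. RefSeq promoters of GRCm38.p6 were found for Gm3264 (chr14:4855273-4855522, plus strand), Gm3636 (chr14:6757058-6757307, minus), Gm3696 (chr14:7105504-7105753, minus) and Gm3558 (chr14:7568567-7568816, minus). The first 250 bases of each are given, 5′ to 3′. Only that of Gm3558 lies directly before the gene span, which ends at 7568566. Those of Gm3264, Gm3636 and Gm3696 lie inside the spans, which start at 4854917 and end at 6757601 and 7106256, so the positions are not alike. Capitals mark the longest run that all 4 share.
Gm3264: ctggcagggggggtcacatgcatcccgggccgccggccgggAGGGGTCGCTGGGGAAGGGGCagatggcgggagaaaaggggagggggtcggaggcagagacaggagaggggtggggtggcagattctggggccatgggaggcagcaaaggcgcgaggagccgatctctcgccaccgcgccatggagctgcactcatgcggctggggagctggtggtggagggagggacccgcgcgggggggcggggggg
Gm3636: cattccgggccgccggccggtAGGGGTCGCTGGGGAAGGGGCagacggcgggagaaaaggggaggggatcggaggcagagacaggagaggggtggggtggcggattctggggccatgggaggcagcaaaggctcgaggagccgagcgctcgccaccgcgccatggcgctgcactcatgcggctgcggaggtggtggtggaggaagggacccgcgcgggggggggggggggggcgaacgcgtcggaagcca
Gm3696: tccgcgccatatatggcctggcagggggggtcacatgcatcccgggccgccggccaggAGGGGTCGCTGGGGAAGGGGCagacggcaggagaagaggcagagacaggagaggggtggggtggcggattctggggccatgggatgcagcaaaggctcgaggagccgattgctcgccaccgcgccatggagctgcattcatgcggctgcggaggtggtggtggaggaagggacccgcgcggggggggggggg
Gm3558: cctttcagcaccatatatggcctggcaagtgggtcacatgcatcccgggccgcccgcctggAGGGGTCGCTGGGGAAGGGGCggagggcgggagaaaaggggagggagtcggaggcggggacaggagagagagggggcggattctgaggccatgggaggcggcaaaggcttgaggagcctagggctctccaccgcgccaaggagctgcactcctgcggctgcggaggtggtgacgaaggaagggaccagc
The shared run has 21 bases and occurs, on either strand, in 21 of 32851 promoters of that table, a share of 0.0639%. Between pairs of these promoters 87.0% to 95.8% of the aligned bases were identical, so the run is one of many stretches in common. This is a match of letters only. Of the 200 models, 129 have a promoter in the table.

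No survey of all duplicated families was made, but other such families among the models were of zinc finger genes. Their proteins bind DNA, and clusters of such genes are known to carry methylated lysine 9 in many cells. On chromosome 2, 20 models had Zfp931 as their closest named gene, in 16 distinct rows. None of the 20 passed the edgeR test (smallest edgeR adjusted p = 0.156). Their log2 fold changes ran from -0.999 to 0.397, 7 above 0 and 13 below. The groups did not overlap for 3 of them, beside 11.3% of all genes as lower, and these 3 are 1 measurement. They were the identical rows of Gm14308, Gm14434 and Gm4724, with 274, 144 and 232 counts in H3WT and 84, 109 and 127 in H3K9M, and the unmatched Gm14430 had the same counts. DESeq2 on the deposited counts called these identical rows as lower, with an adjusted p of 0.0401 for Gm14430. The authors' own deposited DESeq2 comparison did not call them, with a log2 fold change of -0.404 (adjusted p = 0.811) for each. In sum the 20 had 4954, 3834 and 5060 counts in H3WT and 3356, 4669 and 4212 in H3K9M, where the groups overlap. On chromosome 4, 4 further models near Znf41-ps had log2 fold changes from -0.41 to 0.28 and none was called.

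Among the 78 lncRNAs, 1 was called, beside 1.99% of all genes. Without overlap between groups, 13 were higher and 7 lower, beside 11.3% of all genes in each direction, and the median log2 fold change was 0.04. Beside Gm5532, several stood near the threshold, chosen here after their values were seen. Gm10336, on chromosome 13 where it overlaps Mtr, the methionine synthase gene, had 652, 635 and 812 counts in H3WT and 939, 944 and 929 in H3K9M. Its CPM did not overlap (11.7 ± 0.248 and 15.9 ± 0.351), and its log2 fold change of 0.45 ± 0.10 had an edgeR adjusted p of 0.0724. Mtr itself stood at 0.09 ± 0.11 (edgeR adjusted p = 0.770).

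Gm1600 on chromosome 16 had 56, 33 and 96 counts in H3WT and 155, 158 and 214 in H3K9M, without overlap, and an edgeR adjusted p of 0.0767. Gm13986 lies 674 bases from Thbs1, which encodes the matrix glycoprotein thrombospondin 1. Gm13986 had 20, 18 and 21 counts in H3WT and 91, 77 and 44 in H3K9M. Its log2 fold change of 1.85 ± 0.46 had an edgeR adjusted p of 0.0870. With 59 counts in the H3WT group, under the 160 of the last kept model, it entered through its H3K9M counts, which partly fixed its direction. Thbs1 stood at 4125 ± 623 and 2880 ± 454 CPM. Its difference of -0.52 ± 0.15 on the log2 scale, of the opposite sign, did not pass (edgeR adjusted p = 0.125). Gm14005, the Morrbid lncRNA, had 634, 702 and 927 counts in H3WT and 1097, 790 and 996 in H3K9M. Its CPM overlapped between groups, and the edgeR adjusted p was 0.265.

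The largest fitted changes of uncalled models came with few counts or wide spread. Gm38403, a lncRNA, had 8, 20 and 0 counts in H3WT and 6, 95 and 49 in H3K9M, and its log2 fold change of 2.34 ± 1.19 did not pass (edgeR adjusted p = 0.381). Gm10778, a protein coding model that shares 96.82% of its words, had 80, 102 and 62 counts in H3WT and 25, 36 and 19 in H3K9M. Without overlap between groups, it differed by -1.62 ± 0.45 on the log2 scale, which edgeR did not call (adjusted p = 0.120). The lncRNAs Gm10560, Gm6277 and Gm15706 stood at -1.51 ± 0.48, -1.28 ± 0.40 and -1.04 ± 0.56, with edgeR adjusted p of 0.169, 0.163 and 0.408. Gm10778 and these 3 had 80, 110, 126 and 82 counts in the H3K9M group, under the 160 of the last kept model. Their H3WT counts brought them in, so the choice of models partly fixed their direction. Gm38403 reached 160 in neither group alone, with 28 counts in H3WT and 150 in H3K9M. Gm11423 had the widest spread in H3WT among models without a 0, from 6 to 59 counts, and Gm5577 and Gm867 spread from 7 to 60 and from 11 to 65 counts in H3K9M.

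Of the remaining models with a class of their own, the microRNA model Gm24572 lies in Dgcr8, a gene of microRNA processing, and shares all its words with it. It had 5.68% to 8.15% of the counts of Dgcr8 and did not change (edgeR adjusted p = 0.838). The unmatched Gm17066 overlaps Rbm26 and had 620, 571 and 650 counts in H3WT and 370, 475 and 471 in H3K9M. Its CPM did not overlap between groups, and the log2 fold change of -0.47 ± 0.15 had an edgeR adjusted p of 0.176. Gm20219 had 63, 23 and 18 counts in H3WT and 38, 55 and 50 in H3K9M (edgeR adjusted p = 0.780).

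In the authors' deposited table of their own DESeq2 comparison, 196 of the 200 models have a row, and Gm3002, Gm3264, Gm6623 and Gm38403 have none. Past an adjusted p of 0.05, that table has 3 of them as higher and 1 as lower, beside 259 and 332 of its 14691 genes. The authors' deposited table gives Gm5532 a log2 fold change of 1.49 (adjusted p = 2.98e-09), Gm3636 of 1.78 (2.42e-04) and Gm7694 of -0.98 (0.0175). It also calls Gm3558, at 4.07 (0.00431), which on the deposited counts was not called by edgeR but was called by DESeq2, with a log2 fold change of 2.85 (adjusted p = 0.00205). Of the 196 models, 152 had the same sign in the authors' deposited table and in the edgeR fit. The mean normalised count in the authors' deposited table was 0.256 times the mean deposited count in the median model, with a range from 0.126 to 17.8 times, and the counts behind that table were not analysed here.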

How the data were processed

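Polyadenylated RNA of 6 samples was sequenced, per the labels' protocols. HISAT2, featureCounts, DESeq2 and mm10 stand in the submitters' processing notes. Sources used here give no versions, read length, strand setting or treatment of reads that match several genes. Raw read counts per gene were deposited by the authors (15159 rows, each with a total of 19 or more). For their own DESeq2 comparison the authors deposited log2 fold changes made by that tool, per the file headers. The p-values and adjusted p-values of that table were made by the authors with the same tool, per the file headers. The mean normalised count there, a signal over all libraries, was made by the authors before they deposited it. A Wald statistic deposited by the authors, a score, was not used. Library totals were 55550379 to 67994773 counts.

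Genes were filtered with filterByExpr (minimum count 10, minimum total 15), normalised with TMM and compared by group alone with edgeR's quasi-likelihood test (edgeR 4.0.16, R 4.3.3), Benjamini-Hochberg adjustment over 14758 genes and a threshold of 0.05. The standard error is the log2 fold change over the square root of F. CPM are given as mean ± SD of 3 libraries. An exact test of 3 against 3 cannot give a p under 0.1. Transcripts of GENCODE M21 were cut into words of 50 bases (75 as an alternative) on either strand. Class and position come from RefSeq GRCm38.p6. Alternatives were DESeq2 1.42.0, limma-voom (limma 3.58.1), RLE factors, other filters, the replicate number as a block, each library left out, identical rows counted once and Rn45s left out. The steps were tested on simulated data. Libraries of a group differed by more than sampling noise (chi-square per gene of 26.5 or more), so none was counted as a copy.

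The models and gene lists were chosen with earlier results of these data known. Named are the 10 models with most counts, all called, the 4 largest changes in each direction, rows identical to a named gene, the first of each class, the rows around rank 200, and the 3 with the widest spread in each group. Others are named after their values were seen, in the paragraphs on copies, read-through models, families and lncRNAs.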

Additional observations from a re-analysis of the deposited data

How the results depend on the processing

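The count of models higher and lower in H3K9M was 4 and 1 with edgeR, and 12 and 8 with DESeq2, whose 20 calls included all 5 of edgeR and added Gm10336, Gm1600, Gm13986, Gm15663, Gm10451, Gm21949, Gm3696 and Gm3558 as higher and Gm10778, Gm10560, Gm6277 and the 4 identical zinc finger rows as lower. With the replicate number as a block the counts were 0 and 0, with adjusted p of 0.0561 for Gm3002, 0.0684 for Gm5532, 0.0977 for Gm3636, 0.114 for Gm3264 and 0.121 for Gm7694 (with 13 and 10 at an unadjusted p under 0.05 in edgeR). The correlations of same-numbered deviations were -0.157, 0.0346 and -0.0694, which show no pairing of the samples by number but cannot exclude one. Over all 14758 genes tested with edgeR, 138 were higher and 155 lower, and 31 and 27 with the replicate block. With DESeq2 it was 471 and 539 of all 15159 rows. Leaving out each library in turn gave 1 to 4 models as higher and 0 to 1 as lower, and 30 to 149 and 30 to 223 genes overall. Gm3002 was called without each single library and Gm5532 in all such fits but that without H3WT replicate 2. The limma-voom fit lost Gm3264 (adjusted p = 0.0852). A stricter filter (1 CPM or more in 3 libraries) tested 141 models and left Gm3264 out. RLE factors, no filter, identical rows counted once and Rn45s left out gave the same 5 calls. The median log2 fold change and the shares of counts stayed within the spread between libraries under all alternatives run, and 60 models in place of 66 shared over 50% of words of 75 bases.

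Of the 38 models recomputed one by one, 10 changed sign under some alternative, and none of these 10 was called in the main comparison. Leaving out each library gave log2 fold changes of -0.0800 to 0.0424 for Gm5643, -0.0768 to 0.0427 for Gm10052, -0.124 to 0.0529 for Gm15772, -0.0489 to 0.0990 for Gm12191, -0.191 to 0.00106 for Gm9855, -0.453 to 0.307 for Gm13305 and its identical row Gm2002, -0.294 to 0.00900 for Gm24572, -0.388 to 0.460 for Gm15760 and -0.734 to 0.459 for Gm11423, which was at 0.0123 with limma-voom. The cause was not tested. The median standard error over the 200 was 0.365, against 0.133 over all genes tested, and its dependence on depth was not tested.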

Other observations

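Gm symbols outside the count table appear in the authors' deposited table. It holds 33 Gm rows that have no row among the deposited counts. Of these, 1 passed an adjusted p of 0.05 there, beside 259 higher and 332 lower among all 14691 genes. That row is Gm20319, with a log2 fold change of -1.02 in the authors' deposited table (adjusted p = 0.0114). The per-library counts of these 33 were not analysed here.

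Position in the genome was described for models and genes with a RefSeq coordinate. For 6 of 197 models (3.05%) the nearest tested gene was called and had the same direction, beside 137 of 14706 of all tested genes (0.932%). The 6 include Gm3264, nearest to Gm3002, and Gm3696, nearest to Gm3636 at 316803 bases. These are all of the family on chromosome 14, whose direction the choice of models partly fixed, so the share is no trait of Gm models at large. Of the 5 called models, 1 had a called nearest neighbour of the same direction, Gm3264 with Gm3002, 1024234 bases apart and of the same family, beside 10 of all 292 called genes with a position (3.42%).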
